A study of Mus musculus with 6 samples.

Results

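Fibcd1, Spink8, C1ql2, Dsp, Tdo2 and Lct are 6 genes used as markers of hippocampal principal neurons. They were picked by name, with earlier results of these data known, from 32531 gene symbols counted in mouse cerebral cortex. Both their difference between captured and reference RNA and their spread between the captured libraries were known when they were picked. Those values are given here as a description, and the calls of the fit over all genes are counted for them without being read as support.

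The method, TRAP-seq, sequences RNA pulled down with tagged ribosomes, and was applied to untreated adult mice. Input and IP libraries alike came from Htr4-EGFP/Rpl10a animals, line ES1299. In this line the ribosomal protein Rpl10a carries the fluorescent tag EGFP and is made where the serotonin receptor gene Htr4 is active, so ribosomes of all such cells in the dissected cortex are tagged, not those of one cell type. An anti-EGFP pull-down gave 3 immunopurified (IP) libraries, and 3 input libraries of the cortex served as the reference. Libraries with the same replicate number shared a sequencing lane, numbered 1 to 3. The labels do not say whether they also came from the same animals or homogenate, so in what follows a lane stands for a replicate number, and lane and shared tissue cannot be told apart. The labels give neither the sex and exact age of the mice nor how many were used per library, so p-values measure only the spread between these libraries, which may be technical. Gene reads numbered 37696125 to 52360452 in input and 53147173 to 67559533 in IP, and CPM below means reads of a gene per 1000000 gene reads. Htr4 itself lay between 7.30 and 7.96 CPM in the input libraries and between 18.8 and 23.3 CPM in the IP libraries, so its groups did not overlap. Cortical excitatory markers were abundant in every library: Slc17a7, the vesicular glutamate transporter gene, never fell under 374 CPM. IP replicate 2, the highest IP library for all 6 genes and for 29.5% of all tested genes, did not stand apart over the whole transcriptome. Chi-square values of the pairwise count comparison of IP libraries, divided by their degrees of freedom, were 59.1 for IP replicates 1 and 2, 64.3 for 2 and 3, and 68.8 for 1 and 3.

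The hippocampus lies beneath the neocortex along its inner edge, and the borders have to be cut through in a dissection. Its circuit runs from granule cells of the dentate gyrus through their mossy fibres to CA3 pyramidal neurons, and on to CA1 pyramidal neurons, with CA2 between them and the subiculum as an output station. Granule cells and pyramidal cells of each field carry gene sets of their own. Fibcd1, a receptor-like membrane protein gene with a fibrinogen-type domain, and Spink8, a gene of the Kazal family of serine protease inhibitors, mark CA1. C1ql2, which encodes a secreted C1q-like protein of mossy fibre synapses, marks dentate granule cells. So do Dsp, the gene of the desmosomal plaque protein desmoplakin, Tdo2, the gene of the tryptophan dioxygenase that opens the kynurenine pathway, and Lct, the lactase gene. In RNA from whole tissue, fewer cells of a type and less RNA per cell cannot be told apart.

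In GENCODE M21 on GRCm38, all 6 are protein-coding. Fibcd1 lies on chromosome 2 at 31813290 to 31846005 (minus strand) and Spink8 on chromosome 9 at 109812280 to 109826633 (plus strand). C1ql2 lies on chromosome 1 at 120340582 to 120343174 (plus strand) and Lct on the same chromosome at 128284756 to 128328318 (minus strand). Dsp lies on chromosome 13 at 38151294 to 38198577 (plus strand), and Tdo2 on chromosome 3 at 81957090 to 81976202 (minus strand). The predicted gene Gm10129 overlaps the start of Dsp on the opposite strand, and reads there cannot be told apart without strand. The other 5 loci overlap no annotated gene. Dsp and Lct were the pair whose levels varied most alike over the 6 libraries, and C1ql2 had the largest fitted fold change. Their promoters are shown from RefSeq on GRCm38.p6. Each runs from 250 bases before to 50 after the annotated start, and capitals mark every E-box, the motif CANNTG that basic helix-loop-helix factors such as the neurogenic NeuroD proteins bind.
Dsp: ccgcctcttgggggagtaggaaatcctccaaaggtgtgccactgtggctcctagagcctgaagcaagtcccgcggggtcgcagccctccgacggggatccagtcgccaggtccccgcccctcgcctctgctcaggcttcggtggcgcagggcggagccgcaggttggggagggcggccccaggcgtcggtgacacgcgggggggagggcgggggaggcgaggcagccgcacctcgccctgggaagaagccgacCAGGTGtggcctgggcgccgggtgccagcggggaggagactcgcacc
Lct: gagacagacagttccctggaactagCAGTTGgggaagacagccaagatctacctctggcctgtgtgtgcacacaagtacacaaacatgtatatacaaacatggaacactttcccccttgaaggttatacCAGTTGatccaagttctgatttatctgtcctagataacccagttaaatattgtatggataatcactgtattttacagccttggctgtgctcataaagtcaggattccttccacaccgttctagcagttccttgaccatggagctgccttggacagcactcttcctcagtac
C1ql2: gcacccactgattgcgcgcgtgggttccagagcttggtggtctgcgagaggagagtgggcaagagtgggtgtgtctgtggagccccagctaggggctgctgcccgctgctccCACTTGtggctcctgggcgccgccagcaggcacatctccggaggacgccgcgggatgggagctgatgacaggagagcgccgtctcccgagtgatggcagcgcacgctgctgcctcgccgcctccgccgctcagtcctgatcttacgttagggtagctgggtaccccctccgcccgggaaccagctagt
The Dsp window (chr13:38151044-38151343, plus strand) was 73.0% G and C with 1 E-box and 4 GC boxes (GGGCGG). The Lct window (chr1:128328269-128328568, minus strand) was 44.7% G and C with 2 E-boxes and no GC box. The C1ql2 window (chr1:120340332-120340631, plus strand) was 67.3% G and C with 1 E-box and 1 GC box. The windows of Fibcd1 and Tdo2 held no E-box. Searched on both strands, an E-box was in 72.3% and a GC box in 35.6% of 32817 mouse promoter windows of the same length, so these matches describe common letters. Dsp and Lct, alike in their pattern over the libraries, differed by base composition at their starts.

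The CA1 marker Fibcd1 had the smallest fitted fold change of the 6 genes. It had 3.71, 2.42 and 2.83 CPM in input replicates 1 to 3 and 4.44, 6.63 and 1.60 CPM in IP replicates 1 to 3. IP replicate 3 lay below every input library and IP replicate 2 above every other library, so the groups overlapped. Its means were 2.99 ± 0.662 CPM in input and 4.22 ± 2.53 CPM in IP (SD, n = 3), and the fitted log2 fold change was 0.40 (SE 0.44). Within lanes, Fibcd1 stood at 1.20 times its input in lane 1, 2.74 times in lane 2 and 0.564 times in lane 3. The exact 95% counting intervals of the last pair, 2.24 to 3.38 and 0.436 to 0.729, lie on opposite sides of 1. Without IP replicate 2 the log2 fold change was -0.09.

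Spink8 had 1.91, 1.33 and 0.764 CPM in the input libraries and 7.30, 13.6 and 2.06 CPM in the IP libraries. Every IP library exceeded every input library, though IP replicate 3 did so by little over input replicate 1. The means were 1.33 ± 0.573 CPM in input and 7.64 ± 5.77 CPM in IP, with a log2 fold change of 2.44 (SE 0.57). The ratio to input was 3.82 in lane 1, 10.2 in lane 2 and 2.69 in lane 3, so the direction was shared by all lanes and its size was not. Leaving out IP replicate 2 left a log2 fold change of 1.72, and leaving out both lane 2 libraries 1.69.

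Among the granule cell markers, C1ql2 was the one with the widest gap between the groups. It had 0.769, 1.53 and 0.688 CPM in the input libraries and 8.54, 22.8 and 5.86 CPM in the IP libraries. Every IP library lay above every input library, and IP replicate 2 stood highest. Means were 0.995 ± 0.463 CPM in input and 12.4 ± 9.12 CPM in IP (log2 fold change 3.55, SE 0.50). Ratios to input were 11.1, 14.9 and 8.52 in lanes 1, 2 and 3. Their counting intervals ran from 7.63 to 16.8, from 11.9 to 19.0 and from 6.05 to 12.3, so the lanes were closer to each other here than for any other of the 6 genes with a ratio in all 3 lanes. Without IP replicate 2 the log2 fold change was 2.76.

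Dsp levels were ordered alike in both groups by replicate number. It had 9, 58 and 0 reads in input replicates 1 to 3 and 31, 936 and 0 reads in IP replicates 1 to 3. As levels these are 0.239, 1.15 and 0 CPM in input and 0.583, 13.9 and 0 CPM in IP. Lane 2 was highest and lane 3 empty in both groups. The floor of 3 reads in lane 3 lies at 0.0573 CPM in the input and 0.0447 CPM in the IP. The ratio to input was 2.44 in lane 1 (counting interval 1.14 to 5.83) and 12 in lane 2 (9.24 to 16.0), and lane 3 gives none. The fitted log2 fold change of 3.30 had an SE of 1.60 and became -0.76 without IP replicate 2 and 1.20 without both lane 2 libraries.

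Lct had 0.584, 1.09 and 0.497 CPM in the input libraries and 0.753, 10.4 and 0.432 CPM in the IP libraries. IP replicate 1 lay within the input range, IP replicate 3 just under it and IP replicate 2 far above it, and lane 2 held the highest library of each group. The ratio to input was 9.51 in lane 2 (counting interval 7.22 to 12.8), against 1.29 (0.748 to 2.28) in lane 1 and 0.871 (0.495 to 1.54) in lane 3. The log2 fold change was 2.32 (SE 0.97), -0.38 without IP replicate 2 and 0.01 without both lane 2 libraries.

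Tdo2 had 1.51, 0.615 and 0.745 CPM in the input libraries and 2.20, 5.67 and 1.36 CPM in the IP libraries. IP replicate 3 lay under input replicate 1, so the groups overlapped. Unlike C1ql2, Dsp and Lct, Tdo2 was lowest in input replicate 2, as was Fibcd1. The ratio to input was 1.46, 9.22 and 1.82 in lanes 1 to 3, above 1 in each. The log2 fold change was 1.60 (SE 0.59), 0.81 without IP replicate 2 and 0.55 without both lane 2 libraries.

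**Figure D1:**
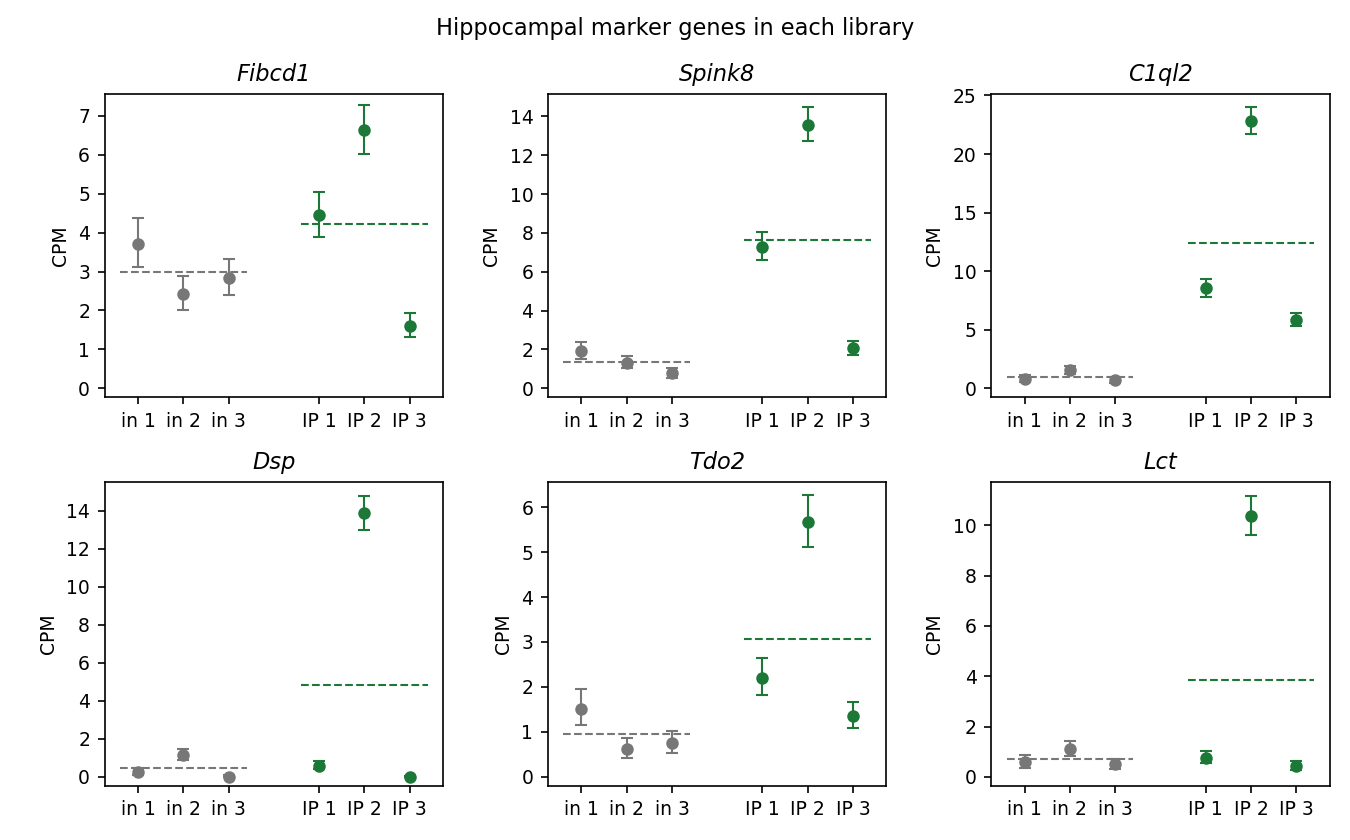
CPM of the 6 genes in each library (input replicates 1 to 3 in grey, IP replicates 1 to 3 in green), with exact 95% Poisson counting intervals as bars and the group mean as a dashed line. Each panel has its own axis from about 0; IP replicate 2 is the highest library in all 6 panels, from 5.67 CPM for Tdo2 to 22.8 CPM for C1ql2.

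**Figure D2:**
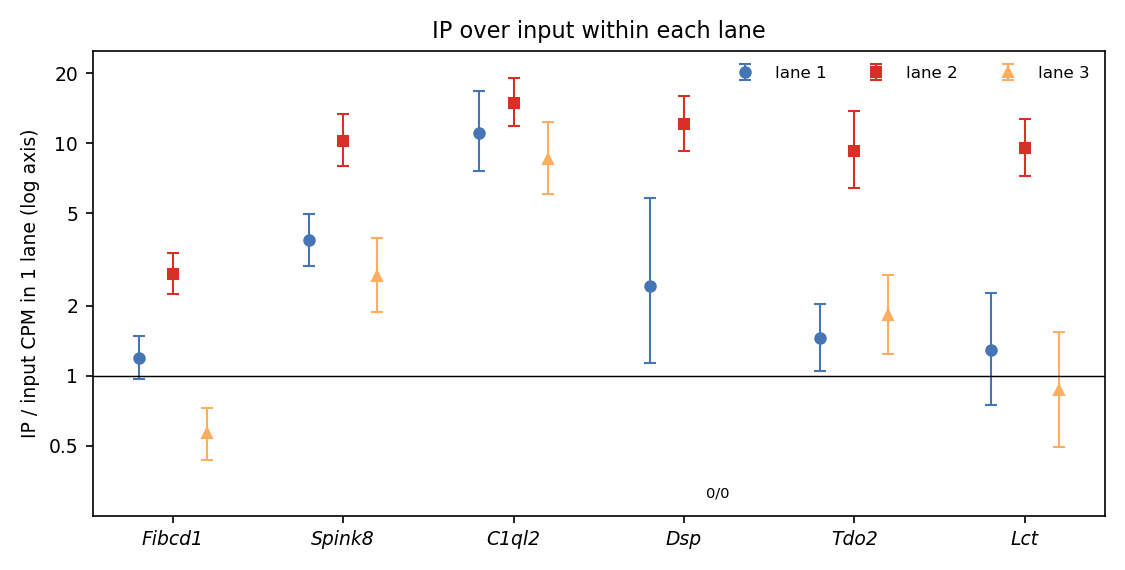
Ratio of IP to input CPM within each sequencing lane on a log axis, with exact 95% counting intervals; 0/0 marks Dsp in lane 3, where neither library had a read. Lane 2 lies highest for every gene, and the lane 3 ratio of Fibcd1 (0.564) lies under 1.

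All 6 genes passed the filter on low counts, and 3 of them (C1ql2, Spink8 and Tdo2) passed the edgeR quasi-likelihood test as higher in IP at a Benjamini-Hochberg adjusted p under 0.05. Over all 16506 tested genes 21.3% were called higher, and since the genes were picked on this contrast, the count is given only as a description. With the replicate block 3 were called, Dsp in place of Tdo2 (21.9% of all tested genes), without both lane 2 libraries C1ql2 alone (14.8%), and with no filter on low counts 5, all but Fibcd1 (16.5%). When input replicate 1, 2 or 3 was left out, 3, 2 and 2 of the 6 were called, against 18.7%, 15.8% and 17.2% of all tested genes. When IP replicate 1, 2 or 3 was left out, 4, 2 and 5 were called, against 19.4%, 19.9% and 19.6%. All 3 IP libraries lay above all 3 inputs for 2 of the 6 (Spink8 and C1ql2), and for 31% of tested genes. IP replicate 2 was at least 2-fold above both other IP libraries for 4 of the 6 genes (C1ql2, Dsp, Tdo2 and Lct), and for 4.8% of tested genes. The ratio of IP replicate 2 to the mean of IP replicates 1 and 3 was 47.5 for Dsp, 17.5 for Lct, 3.19 for Tdo2, 3.17 for C1ql2, 2.90 for Spink8 and 2.20 for Fibcd1. Among the 16244 tested genes with such a ratio these stood at numbers 6, 41, 425, 430, 486 and 751, a description of the spread for which the genes were picked. The corresponding ratio of input replicate 2 to the mean of the other inputs was 9.63 for Dsp, 2.10 for C1ql2 and 2.02 for Lct, but 0.994 for Spink8, 0.740 for Fibcd1 and 0.545 for Tdo2. The libraries of lane 2 were thus both the highest of their group for 3 of the 6 genes, all granule cell markers, and for 14.1% of all tested genes.

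Summed over the 6 genes, the level was 8.73, 8.13 and 5.52 CPM in the inputs and 23.8, 72.9 and 11.3 CPM in the IPs. The makeup of that sum differed between the groups. Fibcd1 supplied 29.8% to 51.2% of the summed reads in the input libraries and 9.09% to 18.6% in the IP libraries, and C1ql2 8.81% to 18.8% in input and 31.3% to 51.8% in IP. Neither range overlapped. The share of Dsp instead was ordered alike in both groups by replicate number: 2.74% in input replicate 1 (exact 95% binomial interval 1.26% to 5.13%) and 2.45% in IP replicate 1 (1.67% to 3.46%), then 14.1% (10.9% to 17.9%) and 19.0% (17.9% to 20.1%) in lane 2. In lane 3 it was 0 of 289 reads in input (0% to 1.27%) and 0 of 758 in IP (0% to 0.485%). Lct made up 13.4% (10.3% to 17.1%) of the sum in input replicate 2 and 14.2% (13.3% to 15.2%) in IP replicate 2, shares whose intervals overlap although the summed level differed.

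**Figure D3:**
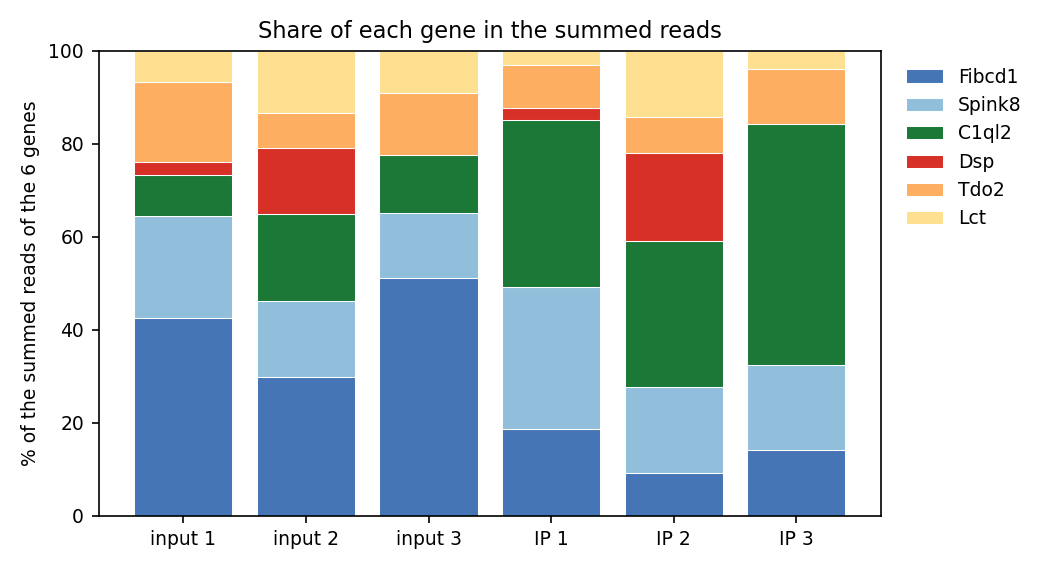
Share of each gene in the summed reads of the 6 genes, in % and stacked to 100, for each library. The Dsp block (red) is present in both libraries of lanes 1 and 2 and absent from both of lane 3, while the C1ql2 block (green) is larger in each IP library (31.3% to 51.8%) than in each input (8.81% to 18.8%).

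Per kilobase of exon, which allows genes to be compared, Spink8 was the most abundant in input at 1.63 ± 0.698 CPM per kb, followed by Fibcd1 (0.629 ± 0.139), C1ql2 (0.497 ± 0.231), Tdo2 (0.247 ± 0.125), Lct (0.113 ± 0.0501) and Dsp (0.0479 ± 0.0628). The libraries of Spink8 lay above those of Fibcd1, while each later neighbour in that order overlapped the one before. In IP the order was Spink8 (9.31 ± 7.02 CPM per kb), C1ql2 (6.20 ± 4.56), Fibcd1 (0.889 ± 0.531), Tdo2 (0.793 ± 0.589), Lct (0.602 ± 0.882) and Dsp (0.498 ± 0.811). C1ql2 did not overlap Fibcd1 there. All other neighbours in the IP order overlapped.

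Over the 6 libraries, the gene whose log2(CPM + 0.5) was most like that of Lct was Il16, a cytokine gene also listed below for granule cells (Pearson r = 0.99). Lct was in turn among the 3 genes most like Dsp (r = 0.98), after Cntrob and Ppcdc. Nearest to Tdo2 were Gmnc, Ccl17 and Derl1, and nearest to C1ql2 Hnrnph1, Wdr8 and Ptk2b. Nearest to Fibcd1 were Ccdc110, Dnajc4 and Vit, and nearest to Spink8 Gprin1, Bace1 and Lamb1. Among the 6 genes themselves, r ran from 0.49 (Fibcd1 with C1ql2) to 0.98 (Dsp with Lct). These are descriptions over 6 libraries that share the group difference and their lanes, and many genes lie close at that number.

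Another 38 genes of hippocampal neurons, listed by subfield as textbook markers, were read from the same fit over all genes. These lists too were chosen with earlier results of these data known. Of these, 36 were tested, 17 were higher and 3 lower in IP, and their median log2 fold change was 0.56, against 21.3% of all tested genes called higher, 23.4% called lower (44.8% in all) and a median of -0.02. Without IP replicate 2, 15 were higher and 4 lower, and without both lane 2 libraries 13 of 34 were higher and 3 lower. Their counts by subfield follow, and differences between the lists were not tested.

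Of 8 other granule cell genes, 1 rose and 1 fell, with a median log2 fold change of 0.18 (-0.20 without IP replicate 2). Prox1, the homeobox gene that specifies granule cell identity and is also expressed in some cortical interneurons, had 38.6, 49.6 and 27.5 CPM in input and 82.0, 199 and 70.6 CPM in IP. It rose (log2 fold change 1.52, SE 0.33, adjusted p = 0.0028), and kept the call without IP replicate 2 (0.90, adjusted p = 0.0018) and without both lane 2 libraries (1.09, adjusted p = 0.0016). Trpc6, a cation channel gene, fell (log2 fold change -1.0, adjusted p = 0.010), and without input replicate 3 its log2 fold change was -0.88 (adjusted p = 0.060). Il16 had 1.13, 7.27 and 0.835 CPM in IP against 0.716, 1.23 and 0.649 CPM in input and did not pass (adjusted p = 0.076). It was called when IP replicate 1 (adjusted p = 0.026) or IP replicate 3 (adjusted p = 0.015) was left out, and its log2 fold change of 1.74 became 0.10 without IP replicate 2. The calpain gene Capn3 had 2.37, 7.30 and 0.403 CPM in IP, on both sides of its inputs (2.12 to 2.87 CPM). Stxbp6, Dock10, Plk5 and C1ql3, the last a paralog of C1ql2, had log2 fold changes of 0.14, 0.03, 0.22 and -0.05 and did not pass. Stxbp6 was called without IP replicate 3 (adjusted p = 0.033).

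Since the lists were chosen with earlier results of these data known, their levels in replicate 2 are given only as a description. IP replicate 2 was the highest IP library for all 8 of these granule cell genes, at a median of 2.16 times the mean of the other IP libraries. Over all tested genes it was the highest for 29.5%, with a median ratio of 0.97. It was also the highest for both hippocampus-wide genes, at 3.24 times for the transcription factor gene Zbtb20 and 1.88 times for Nr3c2, the mineralocorticoid receptor gene. For 4 of 5 CA3 genes it was the highest too, with a median ratio of 1.62. The CA1, CA2, mossy cell and subiculum lists had it highest for 2 of 5, 2 of 7, 2 of 5 and 1 of 4 genes, with median ratios of 1.13, 0.92, 0.99 and 0.91. Input replicate 2 was the highest input for 3 of the 8 granule cell genes, 5 of 5 CA3 genes and both hippocampus-wide genes, and for 40.7% of all tested genes.

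**Figure D4:**
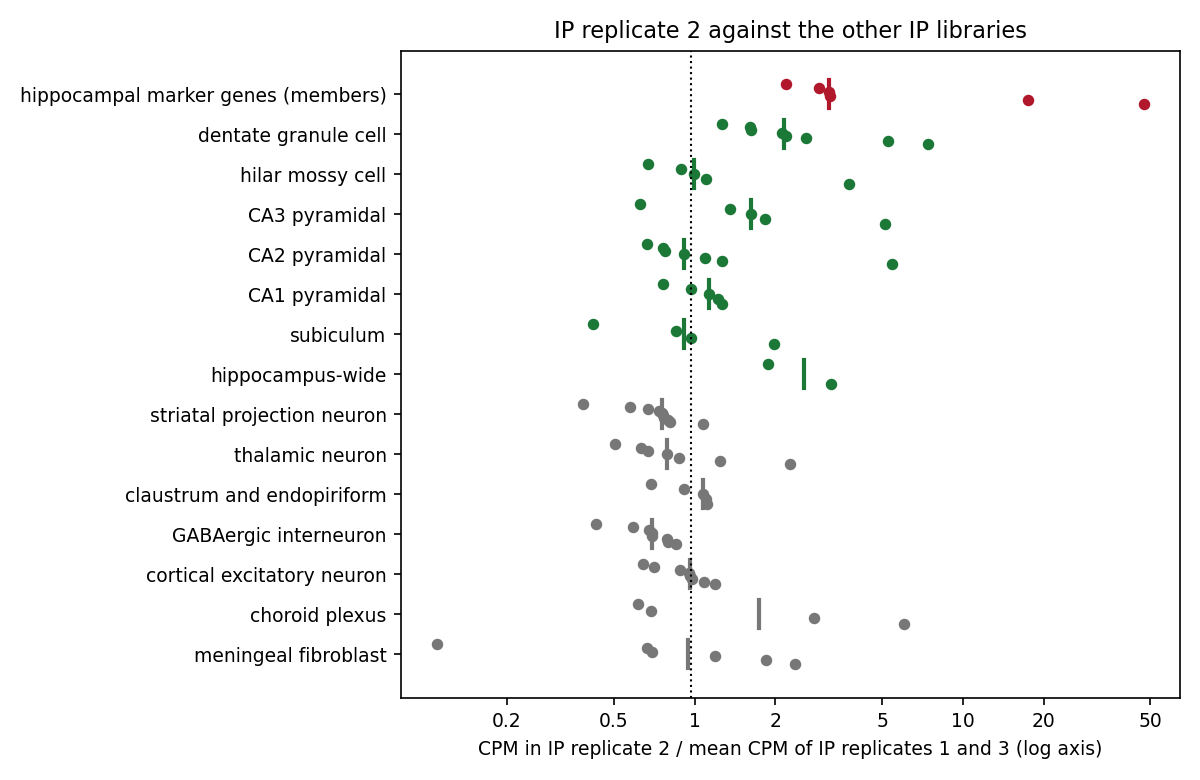
CPM in IP replicate 2 divided by the mean CPM of IP replicates 1 and 3, on a log axis, for each tested gene (points) of the lists, with list medians as bars and the median of all tested genes (0.97) as a dotted line. All points of the 6 markers (red) and of the other granule cell genes lie to the right of that line, while the interneuron points lie to the left of it.

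In the CA2 list most genes were higher in IP. Of 7 tested, 5 rose and 0 fell, with a median log2 fold change of 1.61. Pcp4, a calmodulin-binding peptide gene that also marks deep cortical layers, rose from 23.0 ± 2.35 to 75.3 ± 10.5 CPM (adjusted p = 3.9e-06). Amigo2, an adhesion protein gene, rose from 3.68 ± 0.632 to 13.4 ± 3.31 CPM (adjusted p = 0.00011), and Necab2, a calcium-binding protein gene, from 17.9 ± 1.73 to 62.1 ± 18.8 CPM (adjusted p = 2.6e-05). Stard5 and Cacng5 rose with log2 fold changes of 1.81 and 0.98. Rgs14, a signalling regulator gene of CA2 neurons, had 6.38 ± 1.30 and 10.2 ± 2.78 CPM (adjusted p = 0.067). Its adjusted p was 0.037 under the replicate block and 0.011 once IP replicate 3 was left out. Map3k15 went the other way, with 0.374 ± 0.249 CPM in input and 0.149 ± 0.154 CPM in IP. Its log2 fold change of -1.38 did not pass (adjusted p = 0.28). Avpr1b, the vasopressin receptor gene typical of CA2, had at most 2 reads in any library and was not tested.

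Of 5 CA1 genes besides Fibcd1 and Spink8, 3 rose and 0 fell (median log2 fold change 0.58). Pou3f1, also a gene of layer 5 neurons, rose with 2.07 (adjusted p = 1.7e-06). Wfs1, the wolframin gene, rose with 0.78 (adjusted p = 0.013), and without input replicate 3 its log2 fold change was 0.61 (adjusted p = 0.058). Man1a rose with 0.48 (adjusted p = 0.018). Its call ended when input replicate 2 or 3, IP replicate 2 or the lane 2 pair was left out, with adjusted p of 0.065, 0.051, 0.071 and 0.16. Mpped1 had 116 ± 5.42 and 139 ± 5.95 CPM (adjusted p = 0.15). Ndst4 had 28.0, 22.1 and 11.2 CPM in IP and did not pass (adjusted p = 0.091). It was called without IP replicate 3 (adjusted p = 0.0013) and with no filter on low counts (adjusted p = 0.039).

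Of 5 CA3 genes, 1 rose and 2 fell. Coch fell from 28.3 ± 3.55 to 14.8 ± 3.92 CPM (adjusted p = 0.0012). Pvrl3, an adhesion gene now named Nectin3, fell from 34.0 ± 1.63 to 15.5 ± 6.66 CPM (adjusted p = 0.0019). Bok, a BCL2-family gene, rose with a log2 fold change of 0.54 (adjusted p = 0.043), and lost the call when any 1 of the 3 inputs (adjusted p = 0.12, 0.088 and 0.11), IP replicate 2 (0.27, adjusted p = 0.20) or the lane 2 pair (0.32) was left out. Iyd, a thyroid-type deiodinase gene, had 22 reads in input replicate 2, 11 and 36 in IP replicates 1 and 2, and 0 in the other 3 libraries, so like Dsp it had no read in lane 3 and most in lane 2. Iyd did not pass (adjusted p = 0.75).

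Of 5 tested mossy cell genes, 3 rose: the calretinin gene Calb2 (log2 fold change 2.19), the vesicle protein gene Sv2c (1.37) and Ociad2 (0.26, adjusted p = 0.026). The call of Ociad2 ended when input replicate 2 or 3, IP replicate 3 or the lane 2 pair was left out, with adjusted p of 0.092, 0.080, 0.062 and 0.12. Calb2 was lowest of the IP libraries in replicate 2, with 30.8, 19.5 and 27.6 CPM in replicates 1 to 3. The same gene is also on the thalamic list read below, so its rise cannot be assigned to mossy cells. Of 7 tested thalamic genes, 2 were higher, Calb2 included, and 4 lower. Csf2rb2 had 12, 2 and 5 reads in input and 0 in each IP library. In the subiculum list, 3 of 4 rose: Nts, the neurotensin gene (log2 fold change 3.69), Slc17a6, a vesicular glutamate transporter gene (1.86), and Dlk1 (1.70, adjusted p = 0.0089, and 0.052 without input replicate 2). Fn1, the fibronectin gene, fell only with the replicate block (adjusted p = 0.049, against 0.25 without it). Nr3c2 rose from 33.4 ± 1.12 to 61.4 ± 25.5 CPM (adjusted p = 0.014), but its adjusted p was 0.057 when input replicate 1 or input replicate 2 was left out, and 0.11 when the lane 2 pair was. Zbtb20 had 23.8, 45.8 and 4.53 CPM in IP against 26.2 to 44.0 CPM in input and did not pass (adjusted p = 0.45). It was called lower without IP replicate 2 (log2 fold change -1.35, adjusted p = 0.037).

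**Figure D5:**
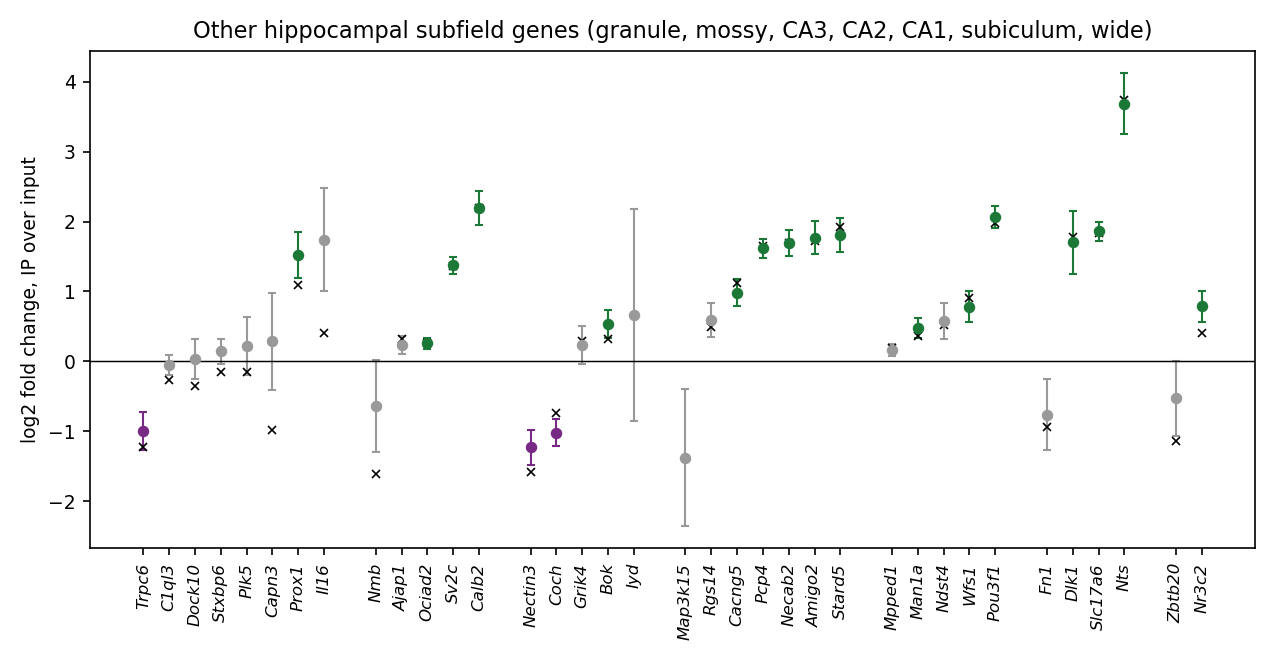
Log2 fold change of IP over input for 36 hippocampal genes other than the 6 markers, in the order granule cell, mossy cell, CA3, CA2, CA1, subiculum and hippocampus-wide, with SE as bars. Green points were called higher, purple lower and grey not called; crosses give the value without both lane 2 libraries where the gene was tested. Most CA2 points lie near or above 1, and most granule cell points near 0.

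Other cells that a cortical dissection can hold were read the same way. Summed over 10 striatal projection neuron genes, the level was 269.8 to 353 CPM in input and 897 to 1367 CPM in IP, with 9 genes higher and 1 lower, and IP replicate 2 was the highest IP library for none of them. It was the highest for 0 of 8 interneuron genes, 1 of 7 tested thalamic genes and 1 of 8 cortical excitatory genes, but for 3 of 5 claustrum and endopiriform genes, whose median ratio to the other IP libraries was 1.08. Of 8 choroid plexus genes 4 were tested, and IP replicate 2 was the highest for 2. Their sum was 8.44 to 10.8 CPM in input and 12.5 to 25.6 CPM in IP, highest in IP replicate 1. Of the 4 tested, Clic6 (log2 fold change 3.30) and Kl (1.27) were called higher and Kcnj13 (-4.47) lower. Kl had 6.25, 13.4 and 3.41 CPM in IP replicates 1 to 3, and lost its call without IP replicate 2 (adjusted p = 0.18). The defining choroid plexus genes Ttr and Folr1, which were not tested, had at most 0.0592 CPM in any IP library, and 0 in IP replicates 1 and 3. Meningeal fibroblast genes summed to 21.0, 20.5 and 15.2 CPM in input replicates 1 to 3 and 29.3, 11.9 and 3.91 CPM in IP replicates 1 to 3. Most of the IP sum was Dcn (27.2, 10.6 and 3.21 CPM), which was not called. Of the 6 genes 3 were lower and 0 higher, with a median log2 fold change of -2.22. IP replicate 2 was the highest for 2 of these 6 genes. All 6 astrocyte, 6 oligodendrocyte and 6 microglial genes fell in IP, with IP replicate 2 highest for 0, 2 and 1 of them. The part of any dissected region in the levels of the 6 markers was not tested.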

How the data were processed

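The deposited files hold raw read counts per gene symbol for 3 input and 3 IP libraries, which the authors did not scale. STAR 2.0.0e, HTSeq and the build mm10 are named, per the submitters' processing notes. Strand setting, annotation and HTSeq version: not given in the sources used here. Therefore reads of overlapping genes on opposite strands cannot be told apart. Rows that name no gene (8.60% to 18.1% of listed reads outside genes, 1.77% to 9.83% matching several genes, 21.1% to 35.7% aligned to several places, and at most 2 reads called unknown) were left out. The floor of 3 reads lies between 0.0444 and 0.0796 CPM. Intervals and floors cover counting error only.

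Groups were compared by edgeR's quasi-likelihood test (edgeR 4.0.16 under R 4.3.3) with TMM scaling, filterByExpr and a group term, two-sided, with Benjamini-Hochberg adjustment over all 16506 tested genes. CPM use plain gene read totals; fold changes use TMM, and SEs come from the test statistic. On simulated data for this comparison (16506 genes), 87% of 2-fold and 100% of 4-fold changes were recovered. These rates hold for the simulated spread between libraries only, and do not give the chance of a call for the markers. Of the markers with a fitted change above 4-fold, C1ql2 (11.7-fold) and Spink8 (5.41-fold) were called in the real data. Dsp (9.82-fold) and Lct (5.01-fold) were not. Alternatives were DESeq2 1.42.0, other scalings and filters, a replicate block and leaving out libraries. Leaving out both lane 2 libraries was added after seeing the data. The replicate number marks a shared lane in the labels. Deviations from the group mean correlated at 0.087, 0.061 and 0.043 for same-numbered libraries, against -0.057 to 0.0014 for others.

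The 6 genes and all lists were chosen with earlier results of these data known. Named are the 6 genes, any gene of the hippocampal lists, and the 3 genes nearest each marker by Pearson r (predicted symbols and genes under 1 CPM left out). Of the other lists only some genes are named. Htr4 and Slc17a7 are named as label checks, and genes of the ranking by IP replicate 2 were named after their values were seen. Library index and group coincide and cannot be told apart. Claustrum and endopiriform genes (3 of 5 higher), ependymal genes (0 of 2 tested called) and endothelial genes (3 of 4 tested lower) were also listed. A gene in the ranking by IP replicate 2 is not reported here.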

Additional observations from a re-analysis of the deposited data

How the results depend on the processing

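Counts over all genes and over the 38 hippocampal genes stayed within 1.5 times of the values above under each alternative run, leaving out single libraries and lane 2 included. With the replicate block, 3607 genes were higher and 3966 lower, and of the hippocampal genes 18 and 4; with DESeq2 the latter were 17 and 3. Leaving out 1 library gave 2673 to 3418 genes higher and 3109 to 4095 lower, and 12 to 20 and 2 to 4 of the hippocampal genes. The number of the 6 markers called higher was 5 with no filter on low counts, where Dsp and Lct joined, 2 to 5 when 1 library was left out, and 1 without both lane 2 libraries. DESeq2 gave no adjusted p for Lct. Without IP replicate 2 the log2 fold changes of Fibcd1, Dsp and Lct turned to -0.087, -0.76 and -0.38, and without lane 2 that of Fibcd1 to -0.24. Over all alternatives they ran from -0.24 to 0.80 for Fibcd1, 1.69 to 2.89 for Spink8, 2.76 to 3.97 for C1ql2, -0.76 to 5.35 for Dsp, 0.55 to 2.10 for Tdo2 and -0.38 to 2.86 for Lct. Leaving the ribosomal RNA symbol Rn45s and the symbol AK140265 out of the library totals changed no mean CPM of a marker by more than its SD; the mean of C1ql2 was then 1.16 CPM in input and 13.0 CPM in IP. Beside the calls given in the report, Bok and Ociad2 were lost when genes needed 1 CPM or more in 3 libraries, Bok with RLE size factors (adjusted p = 0.052) and Wfs1 in DESeq2 (adjusted p = 0.066). Il16 was called in DESeq2 (adjusted p = 0.035) and with no filter (adjusted p = 0.031), as was Ndst4 with no filter, and Mpped1 and Rgs14 with total gene reads. Some libraries held no read of Dsp, Iyd, Csf2rb2 or Avpr1b, so only an upper limit of their level can be given there. For Dsp the empty libraries were not the shallow ones. IP replicate 3 had 67080643 gene reads and 0 of Dsp, against 67559533 and 936 in IP replicate 2.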

Other observations

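The genes that stood highest in IP replicate 2 relative to the other IP libraries were also read without any list. They were chosen after their values were seen, and no test was made, since 1 library has no replicate. The ranking was limited to the 10048 tested genes with at least 5 CPM in that library. Dsp, Lct, Il16 and Capn3 reached that level in no other library. Over all 16244 tested genes with such a ratio, Dsp was number 6 and Lct number 41. Within the limit, Dsp and Lct were followed by Il1r1, an interleukin receptor gene, with 1.45, 9.93 and 0.820 CPM in IP replicates 1 to 3. Parvg, a parvin family gene, had 2.97, 18.4 and 1.67 CPM. Also high in that ranking were Il16, then St18, a zinc finger transcription factor gene, with 16.1, 55.7 and 3.12 CPM, and Tspan18, a tetraspanin gene, with 5.48, 21.4 and 2.19 CPM. Capn3 and Ccbe1 followed, with ratios of 5.26 and 5.19 to the mean of the other IP libraries. Of the genes named here, Il16 and Capn3 are on the granule cell list, and Dsp and Lct are among the 6 markers. Since the markers and lists were chosen with earlier results of these data known, this is a description only. In the inputs, Il1r1 was highest in replicate 2 (5.59 CPM against 3.4 and 2.52 CPM), while Parvg was highest in replicate 1 (5.92 CPM against 3.43 and 2.35 CPM). St18 had 16.7, 17.0 and 13.1 CPM.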
